A study of Mus musculus with 12 samples.

Results

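The 40 genes described here encode the contractile, calcium-handling and energy-supplying proteins of skeletal muscle fibers, and they were followed in 12 tumors grown under the skin of mice. The genes were chosen by symbol from a list, and for each gene the probeset of highest mean expression was read. All 40 were measured, among 19938 genes with a probeset of their own, and all 40 passed the filter on low values that left 16573 genes for the tests. Xirp2 and Smpx passed it on 5 arrays each and Myl1 on 6.

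The tumors were grafts of 1 line, J2A, made from aortic myofibroblasts of C57BL/6 mice that lack p16, p19 and Vnn1. All cells carried oncogenic H-RasV12 on a retroviral vector with GFP. R tumors carried Ras with a mock insert, VR tumors also intact Vnn1, a pantetheinase, and VdR tumors its catalytically deficient form, with 4 tumors in each group. Nude mice received the cells subcutaneously in the back. By the labels, tumors were harvested after 2 to 3 weeks, depending on growth, whereas the study's methods give a single day, the last of that span. The labels give no separate transduction per tumor, so the p-values below measure the spread between grafts of 1 line. Tumors are numbered 1, 2, 4 and 5 in every group, and no batch or scan date was given. The labels mention sorted cells in their extraction text, whereas the study's methods describe RNA of the whole tumor. In these data, lists of macrophage genes (mean log2 expression 8.96 to 10.20), endothelial genes (8.64 to 9.59) and myofibroblast genes (8.20 to 8.79) were measured in all 12 tumors.

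Skeletal muscle fibers contract when myosin of the thick filament pulls on actin of the thin filament. Troponin on the thin filament makes this depend on calcium, which the sarcoplasmic reticulum releases and takes back. Fast and slow fibers use different genes for myosin, troponin and the calcium store, so the set of transcripts tells the fiber types apart. Fast fibers draw on glycogen and phosphocreatine, and slow fibers rely more on respiration. A thin sheet of skeletal muscle lies beneath mouse skin. Grafted cells and host are both of mouse origin, and the arrays cannot tell their transcripts apart. Whether muscle RNA in a tumor came from host muscle was not tested.

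Muscle transcripts were high in 5 tumors, R2, R5, VdR2, VdR4 and VR2, and low in the other 7. The mean log2 expression of the 40 genes was 6.37, 8.08, 6.40 and 7.47 in R tumors 1, 2, 4 and 5. It was 6.39, 7.70, 8.16 and 6.30 in the VdR tumors and 6.33, 7.45, 6.30 and 6.27 in the VR tumors, in the same order of numbers. The 5 high tumors came from all groups, with 2 of 4 in R, 2 of 4 in VdR and 1 of 4 in VR. Tumor 2 was high in every group. For 32 of the 40 genes the 5 highest values were those of these tumors, a pattern shown by 71 genes, or 0.428%, of the 16573 tested. Xirp2 and Smpx exceeded the filter value in these 5 tumors only. They passed the filter through the tumors where they were high, so their place in this count is not independent of it. The distance between the lowest of the 5 and the highest of the 7 reached 4.61 log2 units and had a median of 0.77 over the 32 genes. Since the tumors stood apart on these very genes, no test was made between the 5 and the 7. In RNA of a whole tumor, fewer muscle cells and less muscle RNA per cell cannot be told apart.

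**Figure D1:**
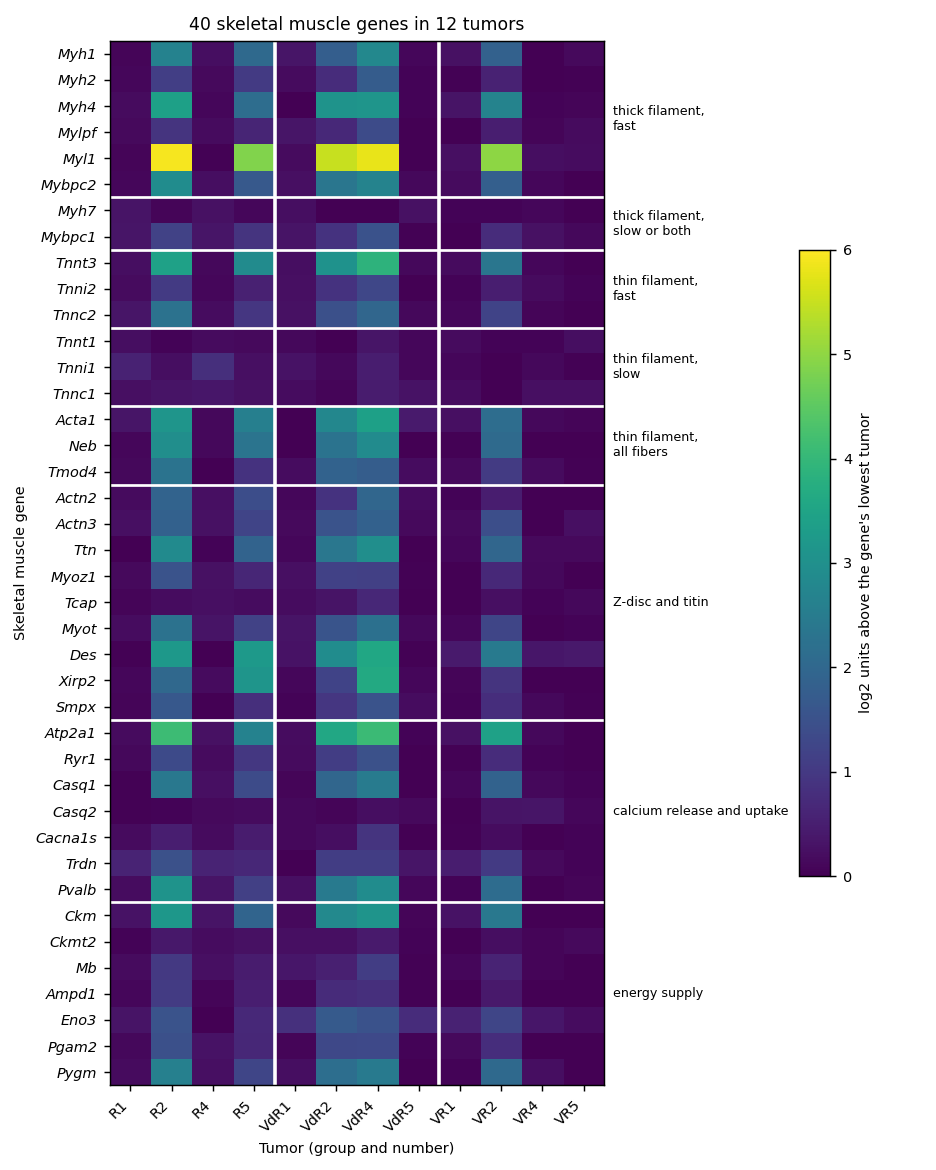
Each row is 1 of the 40 muscle genes, ordered by role, and each column 1 of the 12 tumors. The color gives the log2 expression above the lowest tumor of that gene, from 0 to 6. The columns R2, R5, VdR2, VdR4 and VR2 stand out in most rows, and Myh7, Tnnt1, Tnnc1 and Casq2 stay near 0 in all columns.

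The thick filament genes of fast fibers differed between tumors by 1.37 to 5.91 log2 units from lowest to highest, the last being Myl1, the widest of the 40 members. Myl1, the essential light chain of fast myosin, stood at 5.23, 11.06, 5.19 and 10.01 in R tumors 1, 2, 4 and 5, at 5.33, 10.65, 10.95 and 5.15 in VdR tumors and at 5.40, 10.13, 5.38 and 5.34 in VR tumors. The 5 high tumors thus lay at 10.01 or above and the other 7 at 5.40 or below, close to the filter value of 5.38. Myl1 had the largest spread within groups of all 16573 genes, with an SD of 2.92 pooled over the groups. Myh4, the myosin heavy chain of type 2B fibers, the fastest of the mouse, was 6.22, 9.44, 6.14 and 8.17 in R tumors, 6.04, 9.12, 9.16 and 6.09 in VdR tumors and 6.35, 8.73, 6.09 and 6.12 in VR tumors. Here R2 was the highest tumor and R5 the lowest of the 5. Myh1, the heavy chain of type 2X fibers, was 5.41, 7.97, 5.54 and 7.36 in R tumors, 5.64, 7.11, 8.12 and 5.42 in VdR tumors and 5.59, 7.18, 5.31 and 5.47 in VR tumors. Myh2, the heavy chain of type 2A fibers, was 5.72, 6.74, 5.78 and 6.65 in R tumors, 5.78, 6.38, 7.36 and 5.68 in VdR tumors and 5.65, 6.19, 5.62 and 5.66 in VR tumors. VdR4 was the highest tumor for both of these genes. Mylpf, the regulatory light chain of fast fibers, rose no higher than 6.95 in VdR4. Its values were 5.75, 6.49, 5.76 and 6.22 in R tumors, 5.92, 6.27, 6.95 and 5.59 in VdR tumors and 5.59, 6.08, 5.67 and 5.76 in VR tumors. Mybpc2, the fast myosin-binding protein C, completed the list with 7.39 to 8.63 in the 5 tumors and 5.72 to 5.97 in the 7. All 6 genes of this list had their 5 highest values in the same 5 tumors.

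The slow myosin did not follow. Myh7, the heavy chain of slow fibers, was 6.53, 6.29, 6.49 and 6.31 in R tumors, 6.43, 6.21, 6.23 and 6.48 in VdR tumors and 6.26, 6.26, 6.33 and 6.22 in VR tumors. Its highest value was in R1, where the fast genes were low, and its whole range over 12 tumors was 0.31 log2 units. Mybpc1, a myosin-binding protein C of slow fibers that fast fibers also use, behaved like the fast genes on a smaller scale. It was 6.00, 6.84, 6.01 and 6.58 in R tumors, 5.99, 6.54, 7.19 and 5.69 in VdR tumors and 5.67, 6.44, 5.93 and 5.80 in VR tumors.

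The troponins split by fiber type in the same way. Tnnt3, the fast troponin T that holds the complex on tropomyosin, was 7.60, 10.80, 7.50 and 10.28 in R tumors, 7.59, 10.44, 11.24 and 7.51 in VdR tumors and 7.56, 9.72, 7.49 and 7.37 in VR tumors. Tnni2, the inhibitory subunit of fast fibers, was 7.58, 8.42, 7.50 and 7.95 in R tumors, 7.65, 8.29, 8.69 and 7.41 in VdR tumors and 7.46, 7.92, 7.58 and 7.47 in VR tumors. Tnnc2, the calcium-binding subunit of fast fibers, was 6.36, 8.27, 6.21 and 6.97 in R tumors, 6.29, 7.47, 7.99 and 6.16 in VdR tumors and 6.11, 7.22, 6.10 and 6.02 in VR tumors. All 3 fast subunits were highest in the 5 tumors. None of the 3 slow subunits was. Tnnt1, the slow troponin T, was 5.95, 5.78, 5.90 and 5.88 in R tumors, 5.85, 5.72, 6.07 and 5.82 in VdR tumors and 5.88, 5.79, 5.79 and 5.94 in VR tumors. Tnnc1, which slow fibers share with the heart, was 6.82, 6.88, 6.92 and 6.84 in R tumors, 6.77, 6.65, 7.02 and 6.86 in VdR tumors and 6.76, 6.57, 6.82 and 6.82 in VR tumors. Tnni1, the slow inhibitory subunit, is the member that differed between groups. It was 7.17, 6.84, 7.43 and 6.86 in R tumors, 6.91, 6.73, 7.08 and 6.72 in VdR tumors and 6.71, 6.61, 6.73 and 6.64 in VR tumors, so that its highest values were those of R4 and R1, low tumors for the fast genes.

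Over the 13 genes of the fast fiber list, the mean log2 expression was 8.76 in R2, 7.84 in R5, 8.30 in VdR2, 8.83 in VdR4 and 8.01 in VR2, against 6.13 to 6.27 in the other 7 tumors. All 13 had their 5 highest values in these tumors. The mean of the 5 genes of the slow list, Myh7, Tnnt1, Tnni1, Tnnc1 and Casq2, ranged over all 12 tumors from 6.25 in VdR2 to 6.55 in R4. None of the 5 slow genes had its highest values in the 5 tumors. Casq2, the calcium-storing protein of slow and cardiac muscle, ranged from 5.84 to 6.18. Car3, a gene of slow muscle and fat outside this list, was 9.62 to 11.20 in the 5 tumors. It was also high in VdR1 and VR1, at 10.28 and 10.89. Tcap and Ckmt2, members outside the slow list, did not follow the 5 tumors either. Level values of the slow list therefore do not show that slow fibers were absent.

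**Figure D2:**
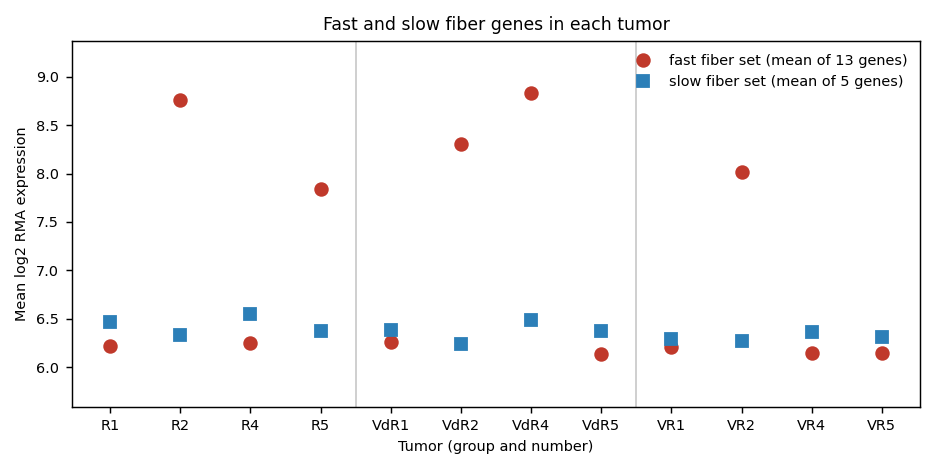
Points give the mean log2 expression of the fast fiber genes (circles, 13 genes) and of the slow fiber genes (squares, 5 genes) in each tumor. The circles lie between 7.84 and 8.83 in 5 tumors and between 6.13 and 6.27 in the others, and the squares stay between 6.25 and 6.55.

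The thin filament genes used by all fibers followed the fast genes. Acta1, the skeletal muscle actin, was 8.20, 10.98, 7.99 and 10.45 in R tumors, 7.85, 10.62, 11.26 and 8.28 in VdR tumors and 8.10, 10.00, 7.99 and 7.95 in VR tumors. Neb, the giant ruler protein of the thin filament, was 5.77, 8.62, 5.78 and 7.96 in R tumors, 5.67, 7.93, 8.55 and 5.66 in VdR tumors and 5.70, 7.74, 5.67 and 5.66 in VR tumors. Tmod4, a cap of the filament's pointed end, was 6.75 to 8.16 in the 5 tumors and 5.87 to 6.08 in the 7.

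Of the 9 genes of the Z-disc and titin, 8 had their highest values in the 5 tumors. Des, the muscle intermediate filament, was 6.67, 9.83, 6.64 and 9.88 in R tumors, 6.94, 9.56, 10.21 and 6.69 in VdR tumors and 7.09, 9.10, 7.02 and 7.06 in VR tumors. Smooth muscle cells express Des as well, and among the 7 low tumors the 3 VR tumors, at 7.02 to 7.09, lay above the others, at 6.64 to 6.94. Xirp2, an actin-binding protein of the Z-disc region and cell junctions, was 5.21, 7.12, 5.27 and 8.23 in R tumors, 5.20, 6.31, 8.74 and 5.20 in VdR tumors and 5.17, 5.99, 5.11 and 5.10 in VR tumors. R5 lay above R2 for this gene, as it did more narrowly for Des. Ttn, the elastic protein titin, reached 7.90 to 8.97 in the 5 tumors against 6.00 to 6.16 in the 7. Actn2, Actn3, Myoz1, Myot and Smpx had the same 5 tumors on top. Tcap, a titin cap, did not, and ranged from 6.11 to 6.78.

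The calcium genes of the list were high in the 5 tumors, with the exception of Casq2. Atp2a1, the calcium pump of fast fibers, was 6.68, 10.62, 6.77 and 9.17 in R tumors, 6.71, 10.10, 10.61 and 6.58 in VdR tumors and 6.78, 9.94, 6.64 and 6.51 in VR tumors. Pvalb, the calcium buffer of the fastest fibers, was 5.93, 8.80, 6.03 and 6.85 in R tumors, 5.96, 8.18, 8.64 and 5.84 in VdR tumors and 5.78, 7.83, 5.72 and 5.79 in VR tumors. In R5 it stood less than 1 log2 unit above R4. Casq1, the calcium store of fast fibers, was 7.01 to 8.15 in the 5 tumors and 5.65 to 5.89 in the 7. Ryr1, the release channel, was 6.89 to 7.61 and 6.12 to 6.30. Cacna1s, its voltage sensor, and Trdn, which anchors the store to the channel, kept the same 5 tumors on top with narrower gaps. Trdn had 19 probesets, and the one with the highest mean, used here, ranged over 1.49 log2 units, whereas another ranged over 3.82.

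Of 7 genes of energy supply, 5 followed. Ckm, the cytosolic creatine kinase, was 7.52, 10.40, 7.55 and 9.18 in R tumors, 7.39, 10.06, 10.33 and 7.31 in VdR tumors and 7.53, 9.62, 7.23 and 7.24 in VR tumors. Pygm, the muscle glycogen phosphorylase, was 6.35, 8.78, 6.42 and 7.42 in R tumors, 6.40, 8.34, 8.64 and 6.17 in VdR tumors and 6.22, 8.22, 6.38 and 6.17 in VR tumors. Mb, the oxygen store myoglobin, was 6.7, 7.52, 6.76 and 7.0 in R tumors, 6.89, 7.06, 7.63 and 6.57 in VdR tumors and 6.65, 7.12, 6.61 and 6.53 in VR tumors. Ampd1 and Pgam2 had the same tumors on top. Ckmt2, the mitochondrial creatine kinase, ranged only from 5.53 to 5.97. Eno3, the muscle enolase, ranged from 8.85 to 10.54, and VdR1 and VdR5, at 9.68 and 9.60, lay above R5, at 9.53.

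Promoters of members are shown for the genes that moved together and for a pair of slow genes that did not. Each line holds the 150 bases before the start listed in RefSeq, build GRCm38.p6, on the strand of the gene, 5′ to 3′. The last 2 bases of the Xirp2 stretch fall within the gene as annotated. Capitals mark CANNTG, the E-box bound by myogenic factors, the MEF2 and CArG motifs, the MCAT motif GGAATG and the TATA box TATAAA, on either strand.
Acta1, chr8:123894776-123894925, minus strand: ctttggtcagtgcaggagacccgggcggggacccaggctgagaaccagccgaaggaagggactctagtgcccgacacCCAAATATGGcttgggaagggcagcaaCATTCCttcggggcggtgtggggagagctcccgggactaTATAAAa
Myh4, chr11:67237662-67237811, plus strand: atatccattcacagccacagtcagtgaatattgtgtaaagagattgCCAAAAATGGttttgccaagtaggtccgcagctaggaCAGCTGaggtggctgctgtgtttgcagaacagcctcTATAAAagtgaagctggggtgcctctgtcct
Des, chr1:75360142-75360291, plus strand: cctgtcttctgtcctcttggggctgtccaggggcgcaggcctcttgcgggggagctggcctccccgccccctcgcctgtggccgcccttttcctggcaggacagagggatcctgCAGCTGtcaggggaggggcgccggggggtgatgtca
Xirp2, chr2:67445852-67446001, plus strand: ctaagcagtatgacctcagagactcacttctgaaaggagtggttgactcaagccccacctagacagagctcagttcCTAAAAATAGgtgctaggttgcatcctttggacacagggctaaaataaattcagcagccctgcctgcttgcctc
Tnnt1, chr7:4515976-4516125, minus strand: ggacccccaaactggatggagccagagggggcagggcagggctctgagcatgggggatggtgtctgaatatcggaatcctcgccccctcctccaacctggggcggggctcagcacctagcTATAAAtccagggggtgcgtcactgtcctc
Tnnc1, chr14:31208162-31208311, plus strand: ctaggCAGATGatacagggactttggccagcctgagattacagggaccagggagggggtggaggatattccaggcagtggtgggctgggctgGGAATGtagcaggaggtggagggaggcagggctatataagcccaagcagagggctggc

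A promoter was found for 31 of the 40 members, and motifs were counted on both strands in the 250 bases before the listed start, which for Myl1 is an internal one. A member was counted when any of its promoters held the motif, whereas the background counts single promoters, so the shares are not in like units. The E-box CAGCTG, a special case of CANNTG, occurred in 15 members (48.4%) and in 13.0% of all 32851 promoters. MEF2 letters occurred in 7 members (22.6%) and 2.92% of all promoters, and GGAATG in 9 members (29.0%) and 12.6%. CANNTG alone was found in 27 members (87.1%) and 66.2%, CArG in 2 members, Acta1 and Myh4, and 1.47%, and TATAAA in 5 members (16.1%) and 12.4%. Among the 5 slow genes, CAGCTG stood before Tnni1 only and MEF2 letters before Casq2 only. Whether motifs differ between slow and other members was not tested. A match gives letters only and is not evidence of binding.

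The 5 tumors did not share 1 profile. VdR4 was the highest tumor for 19 members and R2 for 17, with R1, R4, VdR2 and VR4 highest for 1 each, Myh7, Tnni1, Eno3 and Casq2 in that order. R5 and VR2 were nearly equal in the mean over the 40 genes, 7.47 and 7.45, and were therefore set side by side. Of the 32 genes of the shared pattern, 15 were higher in R5 and 17 in VR2, with differences from -0.99 for Pvalb to 2.24 for Xirp2. Among genes higher in R5 were Xirp2, Actn2 (8.03 against 7.08) and Des (9.88 against 9.10). Those higher in VR2 were led by Pvalb (7.83 against 6.85), Pygm (8.22 against 7.42), Atp2a1 (9.94 against 9.17) and Myh4 (8.73 against 8.17). By list, 5 of the 13 fast fiber genes were higher in R5 and 8 in VR2, and 4 of the 9 Z-disc and titin genes were higher in R5 and 5 in VR2. Of the wider list of 50 muscle genes, 38 were higher in R5, among them, picked after their values were seen, Pdlim3 at 9.11 against 7.83, Csrp3 at 7.30 against 6.40 and Ankrd2 at 7.67 against 6.85. The other 12 were higher in VR2, among them Apobec2, picked likewise, at 6.84 in R5 and 7.79 in VR2. Lists of other cell types leaned to one side as well. R5 was the higher for 7 of 8 cardiac, 10 of 13 adipocyte and 7 of 9 keratinocyte genes, and for 11 of 15 myogenic regulators. It was the higher for 2 of 17 macrophage, 2 of 10 smooth muscle and 0 of 10 endothelial genes. The share over all genes was not counted, so these counts are not read as differences in muscle or in other cell types. VdR4 and R2 differed most in Xirp2 too, at 8.74 against 7.12, and the median difference over the 32 genes was -0.01. These are differences between single tumors and have no replicate error.

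**Figure D3:**
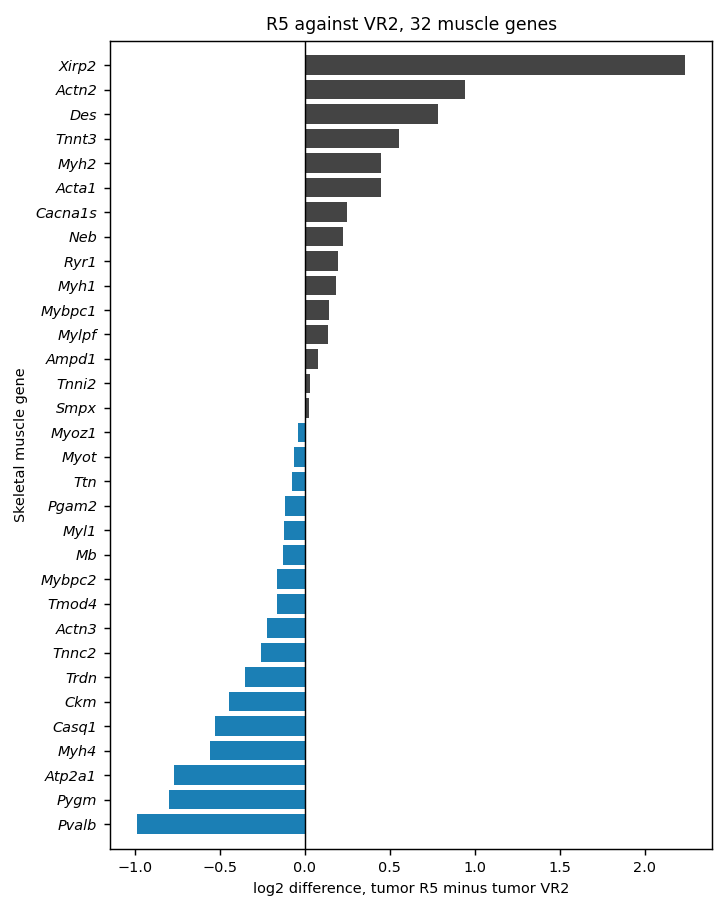
Bars give the log2 expression in tumor R5 minus that in tumor VR2 for the 32 muscle genes with their 5 highest values in the 5 tumors. Bars run from -0.99 (Pvalb) to 2.24 (Xirp2), with 17 below and 15 above 0.

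Other gene lists show how far the pattern reached. Of 39 further genes with the same 5 tumors on top, the largest gaps belonged to Ankrd23, Klhl41, Pdlim3, Fhl1, Apobec2 and Nrap, at 0.48 to 1.58 log2 units between the lowest of the 5 and the highest of the 7. Each of these is a gene of striated muscle sarcomeres or muscle metabolism or is strongly expressed in muscle. In the opposite direction, 66 genes had their 5 lowest values in these tumors, with a largest gap of 0.054. The 10 genes outside the list with the largest difference between VdR4 and the median of the other 11 tumors were Pdlim3 (2.82), Ankrd23 (2.48), Fhl1 (2.37), Klhl41 (2.23), Snord118 (2.15), Apobec2 (1.71), Nrap (1.70), Mustn1 (1.68), Moxd1 (1.68) and Car9 (1.60). Of the wider list of 50 tested muscle genes, 12 had the same tumors on top, among them Myom1 and Myom2 of the M-band and the muscle forms of cytochrome c oxidase Cox6a2, Cox7a1 and Cox8b.

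The genes that build muscle during development did not share the pattern, apart from Myf6. Myf6, the myogenic factor of mature fibers, was 6.30, 7.09, 6.33 and 6.63 in R tumors, 6.16, 6.63, 7.04 and 6.28 in VdR tumors and 6.24, 6.69, 6.28 and 6.19 in VR tumors. Myod1, the master regulator of myoblasts, ranged from 5.88 to 6.50 and was lowest in VR2, and Myog, the factor of differentiating myoblasts, ranged from 6.15 to 6.53. Pax7 of satellite cells stayed between 6.65 and 7.07 and the perinatal myosin Myh8 between 5.77 and 6.16. Of 15 tested myogenic regulators and satellite cell genes, 1 had its highest values in the 5 tumors, and of 4 developmental myosin and actin genes and 8 cardiac genes none had. Over all genes tested the share was 0.428%, so finding none in lists this short is near that share.

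Genes of other cell types of the skin and beneath it were compared in the same way. None of 13 adipocyte, 9 keratinocyte, 7 Schwann cell, 10 endothelial, 10 smooth muscle or 17 macrophage genes had its 5 highest values in the 5 tumors. The pattern occurred in 0.428% of all genes tested, so its absence from lists this short does not set these cell types apart. Of the 13 adipocyte genes, 8 had their 3 highest values in another set, VdR1, VdR2 and VR1, a pattern of 0.621% of all genes tested, and 5, among them Fabp4, Lpl and Pnpla2, had not. This set of tumors was chosen after the adipocyte values were seen, so the counts describe it and do not test it. Retn, the adipokine resistin, was 5.96, 5.95, 5.90 and 5.93 in R tumors, 7.47, 7.43, 5.79 and 5.81 in VdR tumors and 7.59, 5.80, 5.92 and 5.79 in VR tumors. Adipoq, the adipokine adiponectin, was 5.97, 6.55 and 6.62 in these 3 tumors and 5.17 to 5.40 in the others. VdR2 belonged to both sets. Car3, a carbonic anhydrase of slow muscle and of fat, was 9.62 to 11.20 in the 7 tumors of either set and 5.77 to 6.93 in the remaining 5.

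The groups were compared to ask whether Vnn1 or its enzyme activity went with muscle transcripts. With limma over all 16573 genes and Benjamini-Hochberg adjustment, 1 of the 40 members was called in VR versus R, Tnni1, at a threshold of 0.05. In that comparison 21.1% of all genes were called, 13.6% higher and 7.48% lower in VR. None of the 40 was called in VdR versus R, where 9.38% of all genes were (6.58% higher and 2.81% lower), nor in VR versus VdR, where 3.44% were (1.77% higher and 1.67% lower). At an unadjusted p under 0.05 the counts of members by limma were 1, 0 and 0. The share of members called therefore lay below that of all genes in each comparison. The mean over the 40 genes was 7.08 ± 0.84 (SD, n = 4) in R, 7.14 ± 0.94 (SD, n = 4) in VdR and 6.59 ± 0.57 (SD, n = 4) in VR.

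Tnni1 was lower in VR than in R tumors, with a log2 difference of -0.40 (SE 0.12, 95% interval -0.67 to -0.13, limma adjusted p = 0.0369). All 4 VR tumors, at 6.61 to 6.73, lay below all 4 R tumors, at 6.84 to 7.43 (two-sided exact permutation test, p = 0.0286, the smallest that 4 against 4 allows). Tnni1 was the member already called on these same tumors, and the permutation p-value is not adjusted for the number of members. It is therefore no separate support. The call was lost when R1, R4 or any VR tumor was left out, with limma adjusted p-values from 0.0600 to 0.0940, and with only the compared groups in the fit (limma adjusted p = 0.0509). The difference from VdR to R was -0.21 (95% interval -0.48 to 0.05) and that from VR to VdR was -0.19 (95% interval -0.45 to 0.08). Neither passed the test.

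Most members had a lower mean in VR, 39 of 40 against R (38 after cyclic loess, 40 with centred arrays) and 39 of 40 against VdR (38 and 39), with median log2 differences of -0.44 and -0.56, against -0.01 and -0.02 over all genes tested. The 2 comparisons share the VR tumors, of which 1 was high in muscle genes. Most members rose together in the same tumors, so they do not count as separate results. Without R2 the first median was -0.14, and without VdR4 the second was -0.20. Between VdR and R the median was 0.05, against 0.00 over all genes. With arrays centred on their medians it was -0.02, and 22 members lay below 0 where 12 had, and leaving out single tumors moved it from -0.28 (without VdR4) to 0.34 (without R2). Intervals were wide. Acta1 differed by -0.89 in VR versus R (95% interval -2.78 to 0.99), Ckm by -0.76 (95% interval -2.61 to 1.10), Des by -0.69 (95% interval -2.79 to 1.41) and Myl1 by -1.31 (95% interval -5.15 to 2.53). Leaving out single tumors moved these differences from -1.39 to -0.37 for Acta1, -1.33 to -0.18 for Ckm, -1.23 to -0.15 for Des and -2.50 to -0.25 for Myl1. The values nearest 0 were those without R2 (without R5 for Des), and the farthest those without VR2 (without R4 for Des). Of these 4 genes none passed the exact permutation test in any comparison, with p-values from 0.2286 to 1.00. The median SE of the VR versus R difference was 0.41 for the members and 0.08 for all genes. Pooled within groups, the SD had a median of 0.67 over members and 0.11 over all genes, and 11 members were among the 20 genes with the largest.

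**Figure D4:**
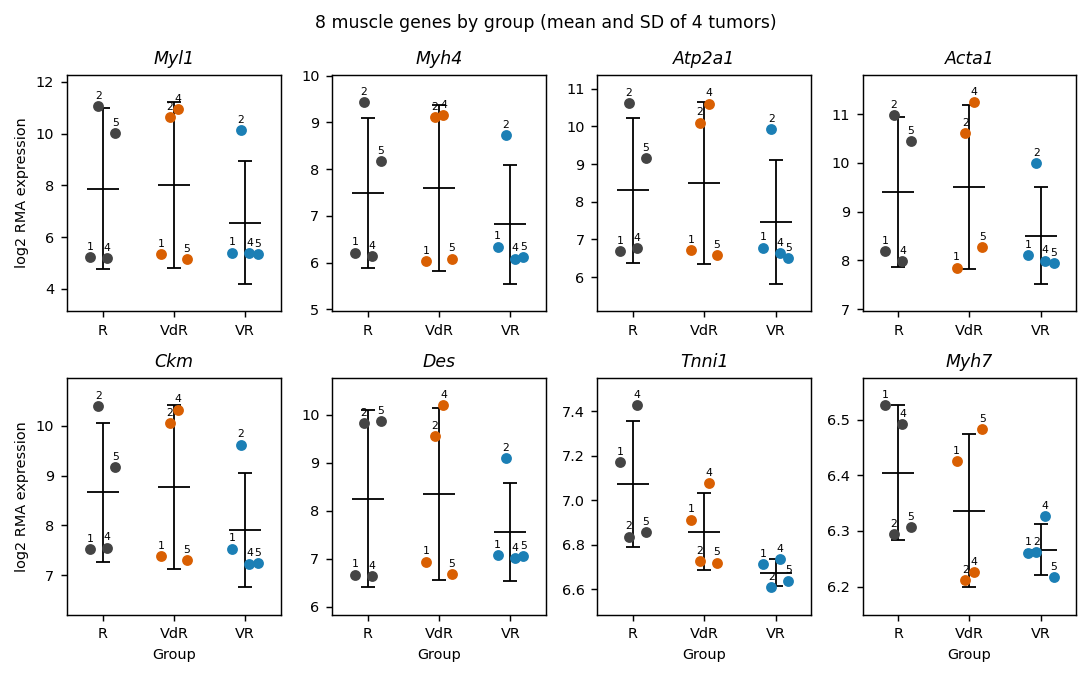
Points are single tumors with their numbers, and horizontal lines with bars give the mean and SD of 4 tumors in each group, in log2 expression with a separate axis for each gene. Myl1, Myh4, Atp2a1, Acta1, Ckm and Des show 2 high tumors in R, 2 in VdR and 1 in VR, and Tnni1 and Myh7 do not.

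**Figure D5:**
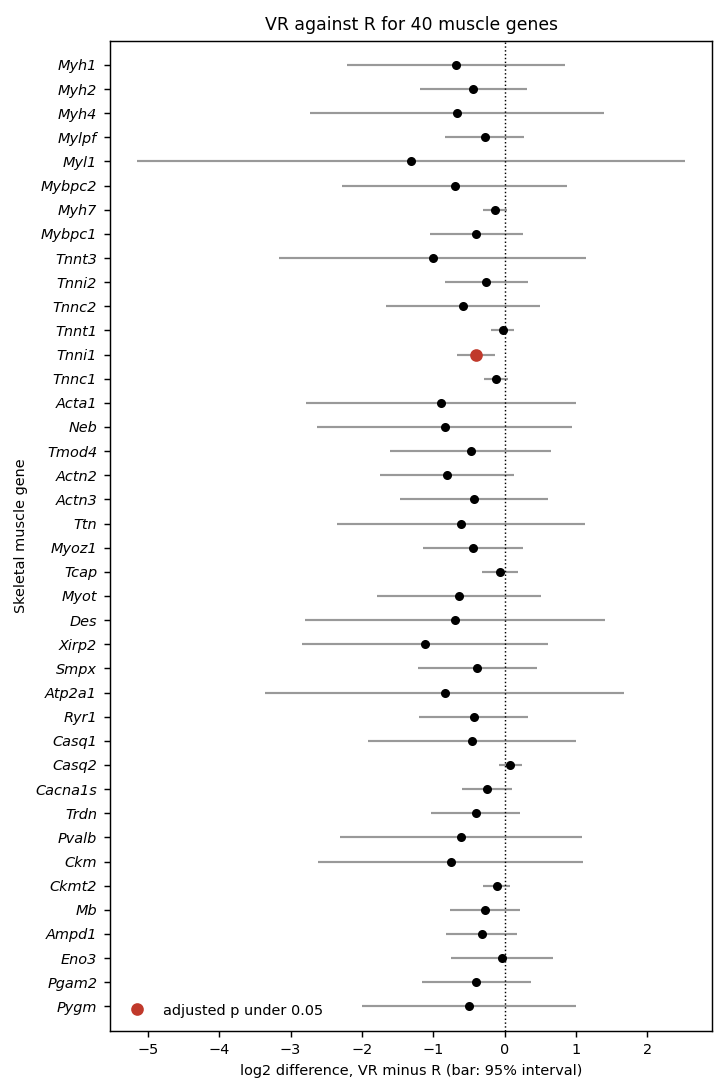
Points give the log2 difference VR minus R for each of the 40 genes and bars its 95% interval by limma. The interval of Tnni1 (red) lies below 0, from -0.67 to -0.13, and that of Myl1 runs from -5.15 to 2.53.

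Leaving out the 5 tumors left R and VdR with 2 tumors and VR with 3, and changed which members were called. Des was then higher in VR than in R by 0.39 (SE 0.08, limma adjusted p = 0.0204), where the difference over all tumors was -0.69. Tnni1 was lower, at -0.60 (limma adjusted p = 0.00751), as was Myh7, at -0.24 (limma adjusted p = 0.0414). In VdR versus R, Tnni1 was lower, at -0.48 (limma adjusted p = 0.0395), and Eno3 higher, at 0.63 (limma adjusted p = 0.0445). No member was called in VR versus VdR. The median over the 40 genes moved to -0.09 in VR versus R, -0.05 in VdR versus R and -0.06 in VR versus VdR. These tumors were chosen on the values of the same genes, so the differences are given as values under another choice of tumors.

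All genes were also compared with the muscle level of each tumor in the model. With the mean of the 40 genes as a covariate in the limma fit, 4387 genes were called in VR versus R against 3500 without it, 1624 against 1555 in VdR versus R and 558 against 570 in VR versus VdR. Of the genes called without the covariate, 94.8% in VR versus R, 96.1% in VdR versus R and 76.3% in VR versus VdR were called with it. Without the 5 tumors the calls were 2798, 1120 and 7. Those fits have 7 tumors, and fewer tumors and less muscle RNA cannot be told apart there.

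Among the genes outside the list, 7 of 50 tested genes of the wider muscle list were called in VR versus R by limma, where 21.1% of all genes were. Phka1, a muscle subunit of phosphorylase kinase, was higher by 0.42 (SE 0.10). The 6 lower ones were led by Adssl1, the muscle adenylosuccinate synthetase, at -0.82 (SE 0.21), Art1 at -0.33 (SE 0.10), and Fbxo32, the ubiquitin ligase atrogin, at -0.53 (SE 0.16). Of 15 myogenic regulators and satellite cell genes, 2 were higher and 3 lower in VR, among them Chrna1, the muscle acetylcholine receptor subunit, at -0.78 (SE 0.15), and Mef2c, a transcription factor that other cell types use as well, at 0.86 (SE 0.14). Mef2c was also higher in VdR than in R, at 0.88 (SE 0.14, limma adjusted p = 0.00247). Macrophage genes moved with the same groups, 12 of 17 called higher in VR and 15 of 17 in VdR than in R, with mean log2 expression of the list between 8.96 and 9.24 in R tumors, between 9.93 and 10.20 in VdR tumors and between 9.80 and 9.95 in VR tumors. Their part in these differences was not tested. Tnnt2, the troponin T of heart and embryonic muscle, was lower than in R tumors, at -0.83 in VR and -0.62 in VdR tumors (SE 0.13 each, limma adjusted p = 0.00142 and 0.0124). Its values were 8.23, 7.88, 8.38 and 8.0 in R tumors, 7.56, 7.18, 7.68 and 7.59 in VdR tumors and 7.19, 7.12, 7.30 and 7.56 in VR tumors. Like Tnni1, Tnnt2 was highest in R4 and R1 and did not follow the 5 tumors.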

How the data were processed

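RNA of 12 tumors was amplified with NuGEN reagents and hybridised to Affymetrix Mouse Gene 1.0 ST arrays. Background correction, normalization and summarization were done by the authors with RMA (oligo package, versions not given in the sources used here), so each deposited value is a log2 expression level of 1 probeset. RMA puts the probe values of all arrays on a common distribution before they are summarized. Array medians of the deposited probeset values still differed, from 6.66 to 6.77. No test compared levels of different probesets, and list means average over them.

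Of 35556 probesets, 21789 had 1 symbol in the platform annotation and were named. A gene was represented by its probeset with the highest mean and entered the tests when 4 or more arrays exceeded 5.38, the 25th percentile of the whole table. The test was that of limma 3.58.1 under R 4.3.3, with a mean per group fitted over all 12 arrays and moderated variances (lmFit, eBayes), with p-values adjusted by Benjamini-Hochberg over all genes tested. Single genes were also compared by two-sided exact permutation of 4 tumors against 4. In a simulated VR versus R comparison of 16573 genes, limma recovered 43 of 50 genes changed 1.5-fold and 47 of 50 changed 2-fold, with 13 false calls among 202. The changed genes were drawn at random from all genes, with normal values independent between tumors. The median SD within groups was 0.67 for members and 0.11 for all genes, so these rates do not apply to the muscle genes. Motifs and figures were made in Python 3.11.15 with pandas 2.3.3 and matplotlib 3.10.9.

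The 40 members and all lists were chosen with earlier results of these data known. Genes with values in every tumor were a fixed set of sarcomere and metabolic genes, the called members and the 2 members of each role with the widest range. From other lists, called genes with the lowest adjusted p were eligible and part of them is given. Retn, Adipoq, Fabp4, Lpl, Pnpla2, Car3, Pdlim3, Csrp3, Ankrd2, Apobec2 in the comparison of R5 with VR2, and the regulators were named after their values were seen.

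Alternatives were no filter or one at the median, the mean of probesets, array weights, cyclic loess or centred arrays, moderation with trend and robust options, a replicate block, only the groups compared, each tumor left out, and the muscle level as covariate. Leaving out the 5 high tumors or the number 2 tumors was added after seeing the data.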

Additional observations from a re-analysis of the deposited data

Results flagged for a closer look

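Within each group of 4 tumors, the 22 genes with values in every tumor and the means of all 40, the fast and the slow genes were searched for a tumor far from the other 3, by the gap to the nearest tumor as a share of the range of the group. Values above Dixon's 95% critical value for 4 samples were taken, which chance exceeds in about 1 in 20 groups. Of 75 groups searched, 16 passed, and each of these was VR2 among the VR tumors. VR2 had already been set apart on these muscle genes as the only high VR tumor. The flags restate that pattern, and their count is not to be weighed against the chance rate. The gap of VR2 was 0.988 of the range for Myl1, 0.981 for Neb, 0.966 for Des, 0.965 for Pvalb, 0.934 for Myh2, 0.925 for Acta1, 0.922 for Tnnc2 and 0.921 for Tnnt3. It was 0.92 for Atp2a1, 0.913 for Xirp2, 0.902 for Myh4, 0.895 for Pygm, 0.875 for Ckm and 0.851 for Myh1. The mean of the 40 genes gave 0.951 and that of the fast genes 0.963. The genes share their tumors and are not independent searches. In R and VdR, with 2 high tumors each, this measure cannot single out a tumor.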

How the results depend on the processing

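Tnni1 was the muscle gene called in VR versus R. The count of muscle genes lower in VR was 2 with array weights and with centred arrays, where Myh7 joined it, and 0 with only the groups compared or without the number 2 tumors. Leaving out single tumors gave 0 to 1, and the log2 difference of Tnni1 stayed between -0.48 and -0.28. Without the 5 high tumors, 1 muscle gene was higher and 2 were lower in VR than in R, and 1 was higher and 1 lower in VdR than in R. The difference of Des in VR versus R was 0.0783 with array weights and 0.39 without the 5 tumors, that of Myl1 0.16, and in VR versus VdR these were 0.24 and 0.13. In VdR versus R, Acta1 was at -0.0256 and Ckm at -0.19 without them. Leaving out single tumors moved VdR versus R between -0.49 and 0.65 for Acta1, -0.41 and 0.69 for Ckm, -0.83 and 1.21 for Myl1, and -0.52 and 0.65 for Des.

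All genes called numbered 3500, 1555 and 570 in VR versus R, VdR versus R and VR versus VdR. With array weights they were 5667, 2595 and 884, without the number 2 tumors 2313, 909 and 55, and without the 5 tumors VR versus VdR had 7. Leaving out single tumors gave 2458 to 3581, 961 to 1775 and 86 to 748. Centred arrays gave 5459 in VR versus R, 1577 higher and 3882 lower against 2261 and 1239, and in VdR versus R 700 and 999 against 1090 and 465. Cyclic loess gave 892 and 703 there. The causes were not tested. With the replicate number as a block, 3927, 1654 and 621 genes were called, and the count of called muscle genes stayed at 1, 0 and 0. Deviations of tumors with the same number correlated at -0.15 to 0.40, over 0.1 in 8 of 12 pairs, and 10 of 24 best matches in another group had the same number. For number 2 the correlation was 0.40 between VR and R, 0.36 between VdR and R and 0.23 between VR and VdR. Whether tumors of 1 number share a factor was not tested, and the main fit did not take the numbers as pairs. The number of arrays limits precision, and Myl1, Xirp2 and Smpx lay near or below the filter in the low tumors.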
